A study of Homo sapiens with 6 samples.

Results

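The 10 genes described here restrain NF-kB signalling: RNF11, TNFAIP3 (which encodes A20), ITCH, TAX1BP1, TNIP1, CYLD, OTULIN, NFKBIA, NFKBIB and NFKBIE. They were picked by function from the 57905 gene rows of the table, and the group was put together because RNF11 fell strongly in these same libraries. The values of RNF11 are therefore given as a description with no test, and tests are given for the other 9 genes. All 10 passed the filter on low expression, a mean FPKM (the authors' read level, scaled for gene length and sequencing depth) of at least 1 over the 6 libraries.

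The libraries came from cultured A549 cells, a widely used line derived from a human lung adenocarcinoma. The cells were given miR-19a (3 samples) or the negative control miR-NC (3 samples), each at 25 nM with a lipid reagent, and the design gives 24 h for the harvest. Poly(A) RNA was sequenced to between 16323470 and 17957932 counted reads per miR-19a library and between 15699037 and 16652353 per miR-NC library. Nothing in the labels states that replicates were grown apart, so the p-values measure only the spread between these libraries, which may be technical.

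NF-kB is a family of transcription factors held in the cytoplasm by IkB proteins. Inflammatory receptors build ubiquitin chains that activate the IKK kinases, which mark the IkB proteins for destruction and free NF-kB to enter the nucleus. A20 works in a complex with RNF11, ITCH and TAX1BP1 that edits ubiquitin on signalling proteins, TNIP1 (ABIN-1) links A20 to ubiquitin chains, and CYLD and OTULIN cut such chains. Several brakes, NFKBIA and TNFAIP3 among them, are themselves switched on by NF-kB and close a feedback loop.

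A microRNA recognises a messenger RNA mainly through its seed, and sites in the 3′ UTR that pair with it lower the transcript. The guide strand and the strongest matches in these 10 genes are shown because RNF11 is the member with 2 8mers. In the microRNA, capitals mark the seed (bases 2 to 8). In the sites, capitals mark the match, and each window of 30 bases is the sense strand of the 3′ UTR (GENCODE release 29, GRCh38), with the bases that could pair with the rest of the microRNA to the left. The microRNA sequence is from RefSeq on GRCh38.p14, and the labels do not name the strand of miR-19a, which is taken here as the 3p strand.
miR-19a-3p: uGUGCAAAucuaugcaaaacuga
RNF11, first 8mer: aaaaagtagttttaagcttgTTTGCACAgt
RNF11, last 8mer: aagataattgtattttatgtTTTGCACAca
TNFAIP3, 8mer: attataaaaagtatttgaaaTTTGCACAtt
CYLD, 8mer: aagtgaaaaagtacatatatTTTGCACAag
CYLD, 7mer-m8: aagtatttaataagaagcatTTTGCACtct
TNIP1, 7mer-m8: tgtccatccctggatagctaTTTGCACgaa
ITCH, 7mer-A1: atgtttgtccttctctgcctgTTGCACAtc

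The letters searched on the sense strand were TTTGCACA (8mer), TTTGCAC (7mer-m8), TTGCACA (7mer-A1) and TTGCAC (6mer), and since each holds the next shorter ones, a site was counted once, in its strongest class. RNF11 carried 2 8mers in a 3′ UTR of 2133 bases and no weaker match. They lie at chr1:51271809-51271816 and chr1:51272472-51272479 on the plus strand, starting 487 and 1150 bases after the stop codon and 663 bases apart. TNFAIP3 had 1 8mer at chr6:137883191-137883198, starting at base 1872 of a 3′ UTR of 1993 bases, and thus close to its end. CYLD had 1 8mer at chr16:50797954-50797961 and a 7mer-m8 at chr16:50796697-50796703, in a 3′ UTR of 5427 bases.

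Weaker matches were found in another pair of members. TNIP1 had a 7mer-m8 at chr5:151029981-151029987, on the minus strand, and a 6mer, and ITCH a 7mer-A1 at chr20:34507859-34507865 and a 6mer. OTULIN, with the longest 3′ UTR of the group at 6663 bases, and the IkB genes NFKBIA, NFKBIB and NFKBIE had no match at all. TAX1BP1 had none in the 52 bases of the transcript with the longest coding sequence, but its transcript with the longest 3′ UTR (3591 bases) carries 1 8mer. Which of these transcripts the cells make was not measured.

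**Figure D1:**
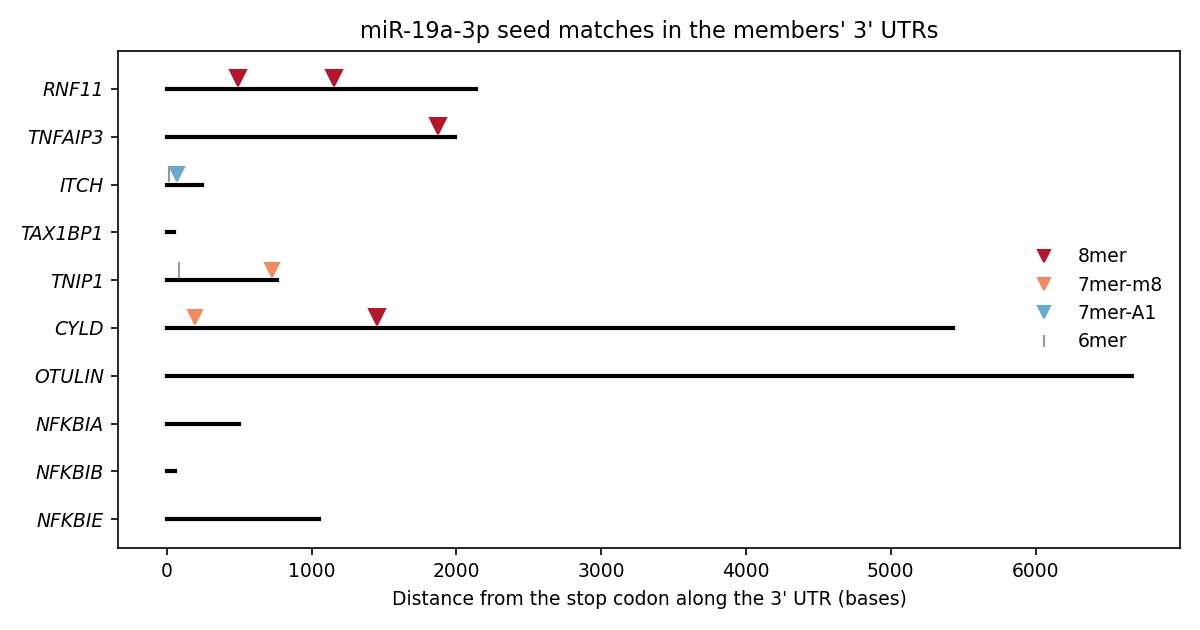
Map of miR-19a-3p seed matches in the 3′ UTR of each of the 10 genes, drawn to scale as distance in bases from the stop codon. RNF11 is the member with 2 8mers, TNFAIP3 and CYLD have 1 each, and OTULIN, the IkB genes and this TAX1BP1 transcript have none.

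The surroundings of the sites differed modestly. A and T made up 66.7% and 71.7% of the 30 bases on each side of the RNF11 8mers, 78.3% around that of TNFAIP3 and 68.3% around that of CYLD. The computed duplex of miR-19a-3p with the printed window had a free energy of -16.4 and -12.4 kcal/mol at the RNF11 sites. It was -12.9 kcal/mol for the TNFAIP3 8mer and -11.8 kcal/mol for the CYLD 8mer, and the TNIP1 7mer-m8 reached -15.5 kcal/mol. On the same scale the full complement of the microRNA gives -35.7 kcal/mol and the 8mer alone -9.2 kcal/mol. The RNF11 duplexes held 18 and 14 base pairs, that of TNFAIP3 16 and that of the CYLD 8mer 12, of the 23 bases of the microRNA.

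RNF11, a small RING-type protein that serves the A20 complex, was far below its control level. It had 12.9, 13.2 and 13.2 CPM (counts scaled to library size with TMM factors) in the miR-19a libraries, from 208, 224 and 234 reads, against 44.5, 44.3 and 40.2 CPM in the miR-NC libraries, from 738, 709 and 632 reads. The groups lay far apart, and the miR-19a libraries hardly differed among themselves (13.1 ± 0.160 CPM, against 43.0 ± 2.42 CPM in miR-NC; mean ± SD, n = 3 each). The log2 fold change was -1.71 (SE 0.076), a ratio of 0.305, and 20 of the 12452 genes tested had a lower one. In bulk RNA, less transcript in every cell and fewer cells holding it cannot be told apart. ENSG00000123091, the RNF11 row, stands for a gene at chromosome 1, 51236271 to 51273455, and an overlapping pseudogene on the other strand and a further RNF11 pseudogene had at most 2 reads in any library.

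The partners of RNF11 in the A20 complex did not fall with it. TNFAIP3, the A20 gene, had 60.0, 63.6 and 59.1 CPM in miR-19a and 57.5, 58.7 and 54.0 CPM in miR-NC. The miR-19a libraries were all slightly above, but by less than the test could separate from the spread (log2 fold change 0.10, SE 0.055; edgeR adjusted p = 0.119). ITCH, a HECT-type ubiquitin ligase, had 64.7, 63.4 and 63.6 CPM in miR-19a and 60.4, 60.3 and 63.7 CPM in miR-NC, and the groups overlapped (0.06, SE 0.053, edgeR adjusted p = 0.405). TAX1BP1, the adaptor that brings A20 to its substrates, rose a little.

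TAX1BP1 stood at 173.2, 173.8 and 165.5 CPM in miR-19a and at 152.5, 156.9 and 155.2 CPM in miR-NC, with no overlap. Its log2 fold change was 0.14 (SE 0.041, edgeR adjusted p = 0.00271). TNIP1, the A20-binding ubiquitin sensor, had 223.4, 213.2 and 237.2 CPM in miR-19a and 242.9, 241.0 and 238.0 CPM in miR-NC. The miR-19a libraries were lower, and 1 of them came within 1 CPM of the controls. TNIP1 fell by 0.10 on the log2 scale (SE 0.040, edgeR adjusted p = 0.0328), and this call was lost when miR-19a replicate 1 (adjusted p = 0.108), miR-19a replicate 2 (-0.065, adjusted p = 0.258) or miR-NC replicate 1 (adjusted p = 0.101) was left out, with DESeq2 (adjusted p = 0.0503), with limma (adjusted p = 0.0612 and 0.0627 by pseudocount) and with no expression filter (adjusted p = 0.0872).

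**Figure D2:**
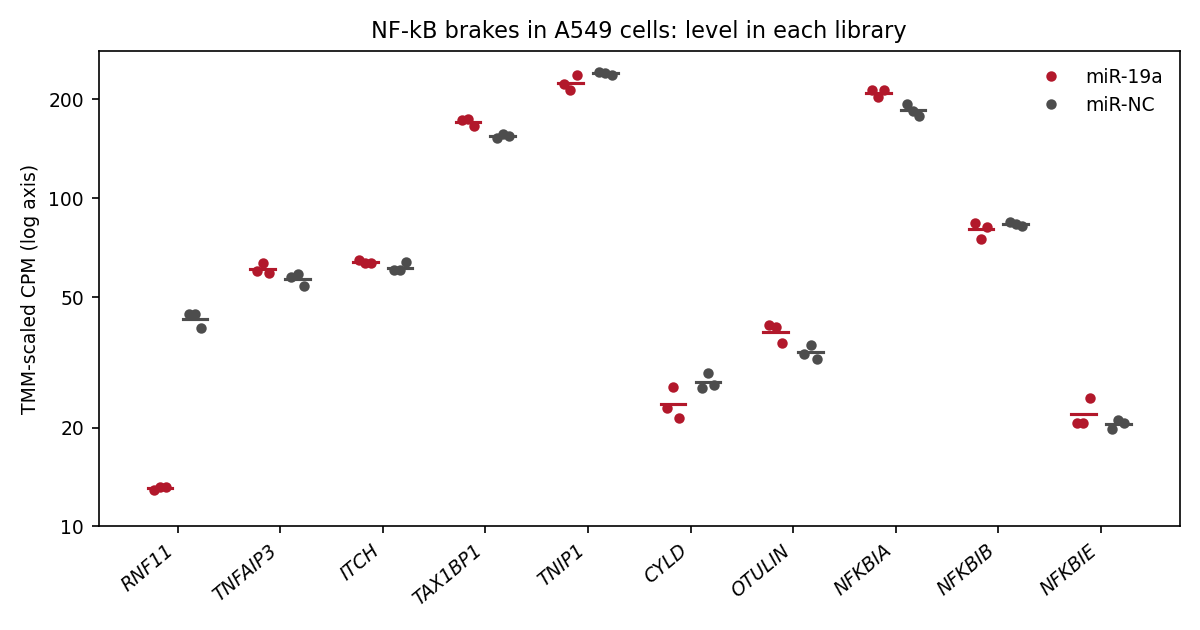
TMM-scaled CPM of the 10 genes in each library on a log axis, with miR-19a in red to the left and miR-NC in grey to the right; points are libraries and bars are means of 3. RNF11 stands at 12.9 to 13.2 CPM in miR-19a and 40.2 to 44.5 CPM in miR-NC, whereas the other genes differ little.

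CYLD and OTULIN, which cut ubiquitin chains, had log2 fold changes of opposite sign. CYLD, the tumour suppressor mutated in cylindromatosis, had 23.0, 26.7 and 21.4 CPM in miR-19a and 26.3, 29.3 and 26.9 CPM in miR-NC. The ranges overlapped, with miR-19a replicate 2 inside the control range. CYLD fell by 0.22 on the log2 scale (SE 0.077, edgeR adjusted p = 0.0163), and the call was lost when miR-19a replicate 3 (-0.14, adjusted p = 0.156), miR-19a replicate 1 (adjusted p = 0.0631) or miR-NC replicate 2 (adjusted p = 0.0841) was left out, and with DESeq2 (adjusted p = 0.0600) or limma (adjusted p = 0.143 with either pseudocount).

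OTULIN, which cleaves linear ubiquitin chains, had 41.0, 40.5 and 36.2 CPM in miR-19a and 33.6, 35.7 and 32.4 CPM in miR-NC. Every miR-19a library lay above every control, although the lowest was close to the highest control. OTULIN rose by 0.21 (SE 0.065, edgeR adjusted p = 0.00575), and limma did not call it (adjusted p = 0.0647 on log2(FPKM + 1) and 0.0617 on log2(FPKM + 0.1)).

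Of the IkB proteins, only NFKBIA, which encodes the rapidly resynthesised IkB-alpha, passed the test. It had 212.9, 202.7 and 213.9 CPM in miR-19a and 193.3, 184.4 and 178.6 CPM in miR-NC. The groups did not overlap, and NFKBIA rose by 0.18 (SE 0.040, edgeR adjusted p = 1.5e-04). NFKBIB, which encodes IkB-beta, ranged from 75.1 to 84.1 CPM in miR-19a and from 82.2 to 84.8 CPM in miR-NC (-0.06, SE 0.049, edgeR adjusted p = 0.372), and its log2 fold change was -0.0115 without miR-19a replicate 2. NFKBIE, which encodes IkB-epsilon, ranged from 20.6 to 24.6 CPM in miR-19a and from 19.8 to 21.1 CPM in miR-NC (0.10, SE 0.082, edgeR adjusted p = 0.334), and its log2 fold change was 0.0076 without miR-19a replicate 3. NFKBIB overlaps SIRT2, a gene on the other strand with 602 to 1025 reads, and without a stated strand setting, reads in the shared stretch cannot be told apart.

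Of the 9 genes other than RNF11, 3 rose (TAX1BP1, OTULIN and NFKBIA) and 2 fell (TNIP1 and CYLD), by 0.10 to 0.22 on the log2 scale. That is near the background: edgeR called 48.4% of the 12452 genes tested, 24.9% higher and 23.5% lower. The groups did not overlap for 5 of the 9, against 54.0% of all genes tested. The median log2 fold change of the 9 was 0.10, beside -0.0045 over all genes tested, and the median size of a called change over all genes was 0.31. The changes of these 9 genes were thus small for this experiment. All 9 lay within the 5th to 95th percentile of all genes (-0.57 to 0.59), and RNF11, chosen for its fall, lay outside.

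**Figure D3:**
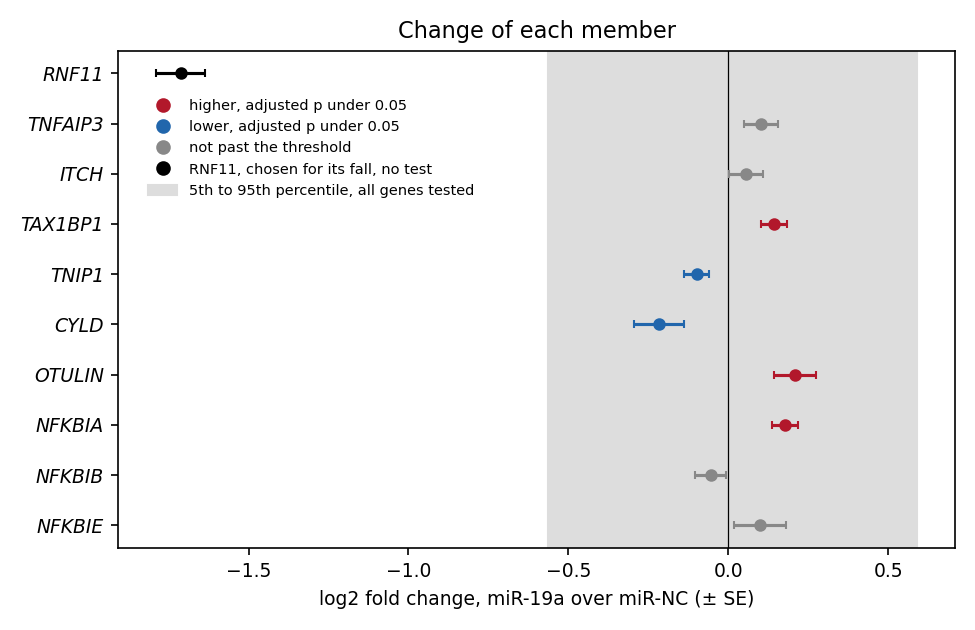
Log2 fold change of each of the 10 genes, miR-19a over miR-NC, with its SE; the grey band spans the 5th to 95th percentile of the 12452 genes tested. RNF11 lies at -1.71, and the other 9 lie between -0.22 and 0.21.

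The authors' FPKM, which allow levels to be compared between genes, show how the make-up of the group changed. In miR-NC the order of mean FPKM was NFKBIA (77.9 ± 2.97), TNIP1 (39.0 ± 0.316), NFKBIB (35.8 ± 0.502), TAX1BP1 (17.8 ± 0.240), RNF11 (13.7 ± 0.724), TNFAIP3 (11.3 ± 0.433), ITCH (9.20 ± 0.327), NFKBIE (8.02 ± 0.252), OTULIN (3.92 ± 0.172) and CYLD (2.11 ± 0.114; SD, n = 3). The ranges of the 3 libraries did not overlap between any neighbours in this order. In miR-19a RNF11 stood ninth, at 4.14 ± 0.0520 FPKM, with a range that overlapped that of OTULIN (4.49 ± 0.304 FPKM). There the ranges of TNIP1 and NFKBIB, and of ITCH and NFKBIE, overlapped as well.

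Among the transcripts of the A20 complex genes the share of RNF11 was lower in miR-19a, which restates the fall it was chosen for. The make-up of the protein complex was not measured. RNF11 made up 9.04%, 9.09% and 9.47% of the summed FPKM of RNF11, TNFAIP3, ITCH and TAX1BP1 in the miR-19a libraries, against 27.2%, 26.8% and 25.2% in the miR-NC libraries. The summed FPKM of the 3 IkB genes was 132.0, 124.2 and 133.1 in miR-19a and 125.3, 121.0 and 118.9 in miR-NC. These sums overlapped, with miR-19a replicate 2 inside the control range. In TMM-scaled CPM the sums were 317.6, 298.5 and 320.4 in miR-19a and 297.9, 289 and 281.5 in miR-NC. Those did not overlap, so the overlap depends on the measure.

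The members with a site were set among all genes with the same kind of site. RNF11 was chosen for its fall, so its low place there follows from that choice and is a description. Of the 10550 tested genes with an annotated 3′ UTR, 6.1% had an 8mer, 7.4% a 7mer-m8 and 5.2% a 7mer-A1 as the strongest site, against 3, 1 and 1 of the 10 members. RNF11 had the lowest log2 fold change of the 44 tested genes with at least 2 8mers, whose median was -0.24, and the lowest but 1 of all 639 genes with an 8mer. The next in the group of 44 was ZMYND11, a chromatin reader, at -1.62. CYLD, at -0.22, was near the median of the 8mer genes (-0.15) and ranked 275th of 639 from the lowest. TNFAIP3, at 0.10, ranked 505th, above the upper quartile of its class (0.059). TNIP1 and ITCH lay within the middle range of their classes.

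**Figure D4:**
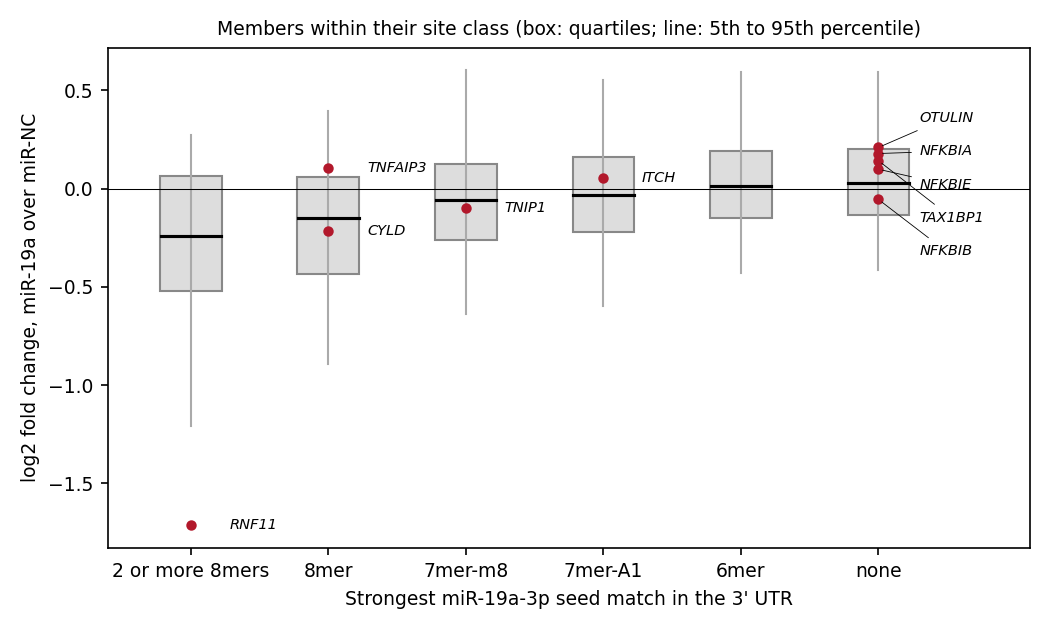
Log2 fold change of the members (red points) over the distribution of all tested genes by strongest miR-19a-3p site, with quartiles as boxes and the 5th to 95th percentile as lines; the 8mer class includes the genes with 2 or more. RNF11, chosen for its fall, lies at -1.71, below the 5th percentile of genes with 2 or more 8mers. TNFAIP3 lies at 0.10, above the upper quartile of the 8mer class.

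The rest of the pathway was read from lists of upstream, downstream and related genes. Among 18 genes that assemble ubiquitin chains at receptors, 5 rose and 4 fell, with a median log2 fold change of 0.01, which is near the background of 24.9% higher and 23.5% lower genes. BIRC3 and BIRC2, the cIAP ubiquitin ligases, rose by 0.76 (SE 0.044, edgeR adjusted p = 6.9e-24) and 0.30 (SE 0.050, edgeR adjusted p = 6.0e-07). RBCK1, a subunit of the complex that makes linear chains, fell by 0.21 (SE 0.042) and the adaptor TRAF5 by 0.31 (SE 0.082). Of 7 genes of the IKK and IkB-degradation list, 1 rose and 3 fell (median -0.06), beside the same background. IKBKB, the main catalytic IKK kinase, fell by 0.44 (SE 0.063, edgeR adjusted p = 1.3e-08) and SKP1, a subunit of the ligase that destroys IkB, by 0.14 (SE 0.039), whereas BTRC, its substrate receptor, rose by 0.31 (SE 0.065).

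Of the 5 NF-kB subunits 3 rose and 0 fell (median 0.24), against 24.9% higher and 23.5% lower of all genes tested. NFKB2, with the smallest adjusted p of the 5, averaged 219.1 ± 4.77 CPM in miR-19a and 176.8 ± 3.52 CPM in miR-NC (0.31, SE 0.039, edgeR adjusted p = 6.2e-10). RELB, its partner in the alternative pathway, rose by 0.24 (SE 0.054), and REL by 0.38 (SE 0.096, edgeR adjusted p = 5.6e-04). None of the 5 had a miR-19a site of 7 bases or more, which 18.7% of all tested genes with a 3′ UTR have. Of 21 listed targets of NF-kB 18 were tested, of which 15 rose and 1 fell (median 0.70), beside the same background. BIRC3 is among these targets and also among the ubiquitin-assembly genes, so its rise is counted in both lists. LTB, a lymphotoxin gene, passed the expression filter only through its level in miR-19a (3.35, 3.75 and 3.34 FPKM, against 0.700, 0.970 and 1.00 FPKM in miR-NC), and without it 14 of 17 rose (median 0.675). CXCL8, a neutrophil chemokine, averaged 115.9 ± 7.52 CPM in miR-19a and 39.8 ± 2.69 CPM in miR-NC (1.54, SE 0.055). PLAU, the urokinase gene, rose by 0.72 (SE 0.037) and carries an 8mer. Of the 18 targets 5 had a site of 7 bases or more, 2 of them an 8mer, and all 5 rose. Of the 639 tested genes with an 8mer, 99 rose and 309 fell. TRAF1, a signalling adaptor, fell by 0.51 (SE 0.068).

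Of 12 tested brakes outside the 10, 4 rose and 4 fell, with a median of 0.08, against 24.9% higher and 23.5% lower of all genes tested. SPATA2, the adaptor that ties CYLD to the machinery of linear chains, had the largest change: it averaged 11.7 ± 0.378 CPM in miR-19a and 18.6 ± 1.34 CPM in miR-NC, a fall by 0.67 (SE 0.094, edgeR adjusted p = 1.0e-08). SPATA2 was also the 1 gene of that list with a site of 7 bases or more, an 8mer beside a 7mer. Of all tested genes with a 3′ UTR 18.7% had such a site. The other genes of the list that fell had none, and the part of the site in the fall of SPATA2 was not tested. USP21, a deubiquitinase, fell by 0.27 (SE 0.080), and N4BP1, an inhibitor that binds ubiquitin chains, and NKIRAS2, a Ras-like protein that binds IkB, rose by 0.37 (SE 0.061) and 0.22 (SE 0.049). The 3 atypical IkB genes NFKBIZ, NFKBID and BCL3 gave 0 calls in edgeR, where 1 of them (NFKBID, 0.34, SE 0.15, adjusted p = 0.0507) had an unadjusted p under 0.05. DESeq2 and limma also called 0. In edgeR 1 rose with no expression filter, with the replicate block and without miR-19a replicate 2. Leaving out miR-NC replicate 3 gave 1 that rose and 1 that fell.

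The relatives of ITCH, the NEDD4 family of ligases that bind short proline-rich motifs in adaptors, were read in the same way. Of 9 tested members and adaptors 6 rose and 1 fell, with a median of 0.23, against 24.9% higher and 23.5% lower of all genes tested. NEDD4 averaged 333.1 ± 12.6 CPM in miR-19a and 235.7 ± 4.11 CPM in miR-NC (0.50, SE 0.038, edgeR adjusted p = 4.7e-18), and SMURF2 rose by 0.28 (SE 0.050). WWP1 fell by 0.39 (SE 0.060, edgeR adjusted p = 9.2e-08). NEDD4 and WWP1, which moved opposite ways, each have a 7mer-A1. Of the 9, 5 had a site of 7 bases or more, against 18.7% of all tested genes with a 3′ UTR. The 3 with an 8mer all rose, by 0.14 to 0.24 on the log2 scale.

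**Figure D5:**
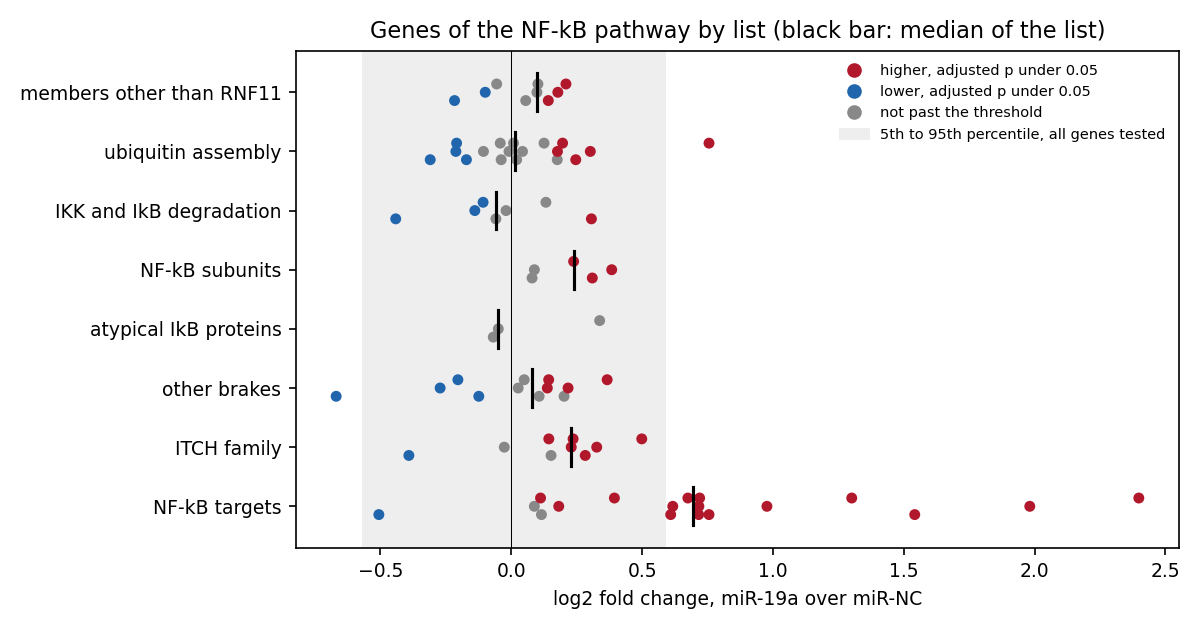
Log2 fold change, miR-19a over miR-NC, of the 9 members other than RNF11 and of the other NF-kB pathway genes by list; each point is a gene, coloured by its edgeR call, and black bars are list medians. The median of the NF-kB targets lies at 0.70, to the right of the grey band of all genes, and the other medians lie between -0.06 and 0.24. BIRC3 is drawn both with the ubiquitin-assembly genes and with the NF-kB targets.

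The RefSeq promoter windows (GRCh38.p14, 300 bases around each annotated start, both strands searched) of 9 of the 10 genes, without NFKBIE, were scanned for the consensus kB motif, to which NF-kB binds. It was present in at least 1 window of TNFAIP3, TNIP1, CYLD, NFKBIA and NFKBIB and was not in those of RNF11, ITCH, TAX1BP1 and OTULIN. Of the windows of tested genes 13.6% hold it. That share counts windows, whereas the members are counted by gene and some have more than 1 window, so these are unlike measures. The windows below are shown because NFKBIA and TNFAIP3 are the feedback genes of the loop, with the match in capitals.
NFKBIA, chr14:35404811-35404840, minus strand: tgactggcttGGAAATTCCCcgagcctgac
TNFAIP3, chr6:137867182-137867211, plus strand: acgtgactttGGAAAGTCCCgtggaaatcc
The other TNFAIP3 match overlaps the window shown. Of the 5 genes with the motif, NFKBIA rose, TNIP1 and CYLD fell, and TNFAIP3 and NFKBIB did not pass.

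The cells carried the markers of their label. Of 7 epithelial and A549 markers 6 had a mean FPKM of at least 1 (EPCAM, at 0.683, did not). The summed FPKM of the 7 was 4562 to 4584 in miR-19a and 4470 to 4550 in miR-NC. ALDH1A1 alone had a mean of 2184 FPKM over the 6 libraries. Single markers differed between the groups past the threshold: KRT8, KRT18 and KRT19 rose (log2 fold change 0.28, 0.38 and 0.40), and AKR1B10 and CDH1 fell (-0.27 and -0.17). ALDH1A1, at 0.03, did not pass. The alveolar markers SFTPC, SFTPA1, SFTPB and NKX2-1 summed to at most 0.0900 FPKM in any library, and 0 of 4 immune and 0 of 2 endothelial markers reached an FPKM of 1. Of 7 fibroblast genes 1 did, COL1A1, and the list summed to 2.53 to 3.01 FPKM in miR-19a and 0.900 to 1.10 FPKM in miR-NC; the other 6 had means of at most 0.0483 FPKM.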

How the data were processed

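Poly(A) RNA of 3 miR-19a and 3 miR-NC samples was read as pairs of 150 bases, per the labels' protocols, and, per the submitters' processing notes, bcl2fastq 2.17.1.14 was used. Aligner, counter, annotation, strand and build: not given in the sources used here. A table deposited by the authors holds a raw count and an FPKM value per gene and library, per the file headers, and the FPKM are scaled for length and depth. Symbols were matched by gene ID.

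Counts were tested with edgeR 4.0.16 (quasi-likelihood, TMM, two-sided, R 4.3.3) over the 12452 genes whose FPKM averaged 1 or more, with Benjamini-Hochberg adjustment and a threshold of 0.05. A standard error is the size of the log2 fold change divided by the root of the F statistic. On simulated counts for these 12452 genes in the miR-19a against miR-NC design, the test found 34 of 50 genes at a fold of 1.25 and 42 of 50 at 1.5. It found 47 of 50 at 2 and 49 of 50 at 4, and wrongly called 8 of 12252 unchanged genes. Far fewer genes changed there than the 48.4% called in the data, so these rates may not carry over. The members other than RNF11 changed by less than the smallest of these folds, so the rates do not cover them. 3′ UTRs came from the GENCODE 29 transcript with the longest coding sequence, and duplexes from RNAduplex (ViennaRNA 2.7.2).

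The 10 genes, the lists and the tests were chosen with earlier results of these data known. Beyond the 10, named genes are the higher and lower genes of each list, at most 2 each, that had the lowest adjusted p, and the 5 genes nearest RNF11 in log2 CPM profile. COL1A1, EPCAM and the other epithelial and A549 markers, REL, LTB, the alveolar markers and the atypical IkB genes were named after their values were seen. IKBKG, OTUD7B and PECAM1 matched no row. Alternatives were other scaling factors, DESeq2 1.42.0, limma 3.58.1 on log2(FPKM + 1) and log2(FPKM + 0.1), other filters, a replicate block, each library left out in turn and another choice of 3′ UTR.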

Additional observations from a re-analysis of the deposited data

How the results depend on the processing

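RNF11 had a log2 fold change between -1.76 and -1.52 under every alternative run, the smallest size with limma on log2(FPKM + 1) (-1.52), where the added 1 shrinks changes of low genes. No member changed sign under any alternative. The number of members other than RNF11 that fell, 2 in the main test, was 0 with DESeq2 and with limma at either pseudocount, 1 with no filter and 1 with a mean FPKM of at least 5, where CYLD was not tested, and 0 to 2 with a library left out. TNIP1 lost its call with DESeq2 (-0.10, adjusted p = 0.0503), limma (-0.11 with pseudocount 1 and -0.12 with 0.1) and no filter (-0.092), and lay between -0.14 and -0.065 with a library left out. CYLD lost it with DESeq2 (-0.22) and limma (-0.16 with pseudocount 1 and -0.22 with 0.1), and lay between -0.31 and -0.14 with a library left out. OTULIN lost it with limma (0.16 with pseudocount 1 and 0.19 with 0.1). TAX1BP1 and NFKBIA kept their calls under every alternative run, and TNFAIP3, ITCH, NFKBIB and NFKBIE gained none. NFKBIE lay between 0.0076 and 0.14 and NFKBIB between -0.088 and -0.0115 over the alternatives, the values nearest 0 being those without miR-19a replicate 3 for NFKBIE and without miR-19a replicate 2 for NFKBIB.

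With a mean FPKM of at least 5, which leaves out low genes, the ubiquitin-assembly list had 3 higher and 2 lower genes and the other brakes 2 lower. The other brakes had 2 higher genes with upper-quartile factors and with limma at either pseudocount, and 2 lower with no filter. Of the atypical IkB genes 1 rose with no filter and 1 with the replicate block. With a library left out, the ubiquitin-assembly list had 3 to 5 higher and 2 to 5 lower genes, the IKK list 1 to 2 higher, the atypical IkB genes 0 to 1 higher and 0 to 1 lower, and the other brakes 2 to 4 higher and 2 to 4 lower. The cause of these shifts was not tested.

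Replicate numbers did not pair the samples: same-numbered libraries had correlations of -0.004, 0.009 and -0.037 in their deviations from the group means. With the replicate block 3083 genes were higher and 2903 lower, against 3095 and 2928, and 3 and 2 of the 9 members. No library correlated best with the library of its own number in the other group. Members with an 8mer were 3, or 4 with the longest 3′ UTR, which adds TAX1BP1. Among the 9 members tested, depth limits CYLD and NFKBIE most, at 326 to 469 reads per library.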

Other observations

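The genes whose profile over the 6 libraries was nearest that of RNF11, each taken relative to its own miR-NC mean, were ZMYND11, GET3, STK26, IMPDH1 and SLC49A4. The Euclidean distance on the log2 CPM scale was 0.154 for ZMYND11, a chromatin reader, and 0.192 for GET3, a targeting factor for tail-anchored membrane proteins. It was 0.272 for the kinase STK26, 0.396 for IMPDH1, an enzyme of guanine nucleotide synthesis, and 0.448 for SLC49A4, a membrane transporter. ZMYND11 had 2 8mers for miR-19a in its 3′ UTR, GET3 and IMPDH1 had 1 each, SLC49A4 had a 7mer-A1 and STK26 had no match. The 2 groups of libraries dominate this distance, which therefore mostly reflects the size of the change, and it is given as a description.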
